A study of Mus musculus with 95 samples.

Results

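The comparison described here sets mouse embryonic stem cells that lack Pcgf1, Pcgf2 and Pcgf4 (Pcgf1/2/4-/-) against cells that lack Pcgf1 alone (Pcgf1-/-), and so asks which genes change once canonical Polycomb repressive complex 1 is removed on top of PCGF1. Its members were chosen by the labels: 2 RNA-seq libraries of Pcgf1/2/4-/- and 2 of Pcgf1-/-, 4 of the 95 samples of the series, with all genes taken. Of 23377 genes in the count table, 12139 had enough counts in these 4 libraries to be tested. All cells were of the E14 line or clones of it, and neither group carried a wild-type Pcgf1. Per the labels' protocols, they grew on gelatin, in medium that held serum, LIF (a cytokine that maintains stem cells) and blockers of the kinases GSK3β and MEK. Knockouts were made with Cas9, and clones were screened by PCR, by Western blotting and by Sanger sequencing. The column names give 1 clone for each genotype, and lines with several deletions were edited from lines with a single one, but which one gave rise to the triple line is not given in the sources used here. Nothing in the labels says that the libraries of a genotype came from separate cultures, so the p-values measure the spread between these libraries, which may be technical. Clone and genotype cannot be told apart in this design.

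Polycomb repressive complex 1 (PRC1) places ubiquitin on a lysine of histone H2A (H2AK119ub1) through RING1A or RING1B, and holds developmental genes silent in embryonic stem cells. One PCGF protein defines each form of the complex. PCGF2 and PCGF4 (the product of Bmi1) form canonical PRC1, whose CBX subunits bind H3K27me3, the mark written by Polycomb repressive complex 2 (PRC2) with its subunit SUZ12. PCGF1 forms a variant complex with KDM2B and BCOR, which recruits RING1B to unmethylated CpG islands without reading H3K27me3.

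The Pcgf1-/- libraries held 7848161 and 4501409 counts, and the triple-knockout libraries 2147968 and 2471117. The Pcgf1-/- pair differed from each other more than sampling noise (chi-square over degrees of freedom of 11.9, against 1.21 in the triple-knockout pair). Levels are given as CPM, counts scaled to library sizes that were adjusted by TMM, a scaling by the bulk of the genes. The log2 ratio of the groups followed the level of a gene: over 10 equal groups of genes by mean level, its median ran from -0.483 in the lowest to 0.585 in the highest. Between replicates 2 and 1 of Pcgf1-/-, which share a genotype, the median ran from -0.232 to 0.51, and between the triple-knockout replicates from 0.019 to -0.068. It also followed exonic length, from 0.401 in the shortest genes to -0.375 in the longest. The count of Rpl13, a ribosomal protein gene, was 1237 and 1118 in Pcgf1-/- and 857 and 908 in the triple knockout, a far narrower range than the library totals. How much of a small shift in an abundant or a long gene comes from the libraries was not tested. A second fit, chosen after the trends were seen and called trend-corrected below, therefore used offsets fitted by loess to the count per exonic base. In that fit the medians by length lay between -0.156 and 0.029.

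**Figure D1:**
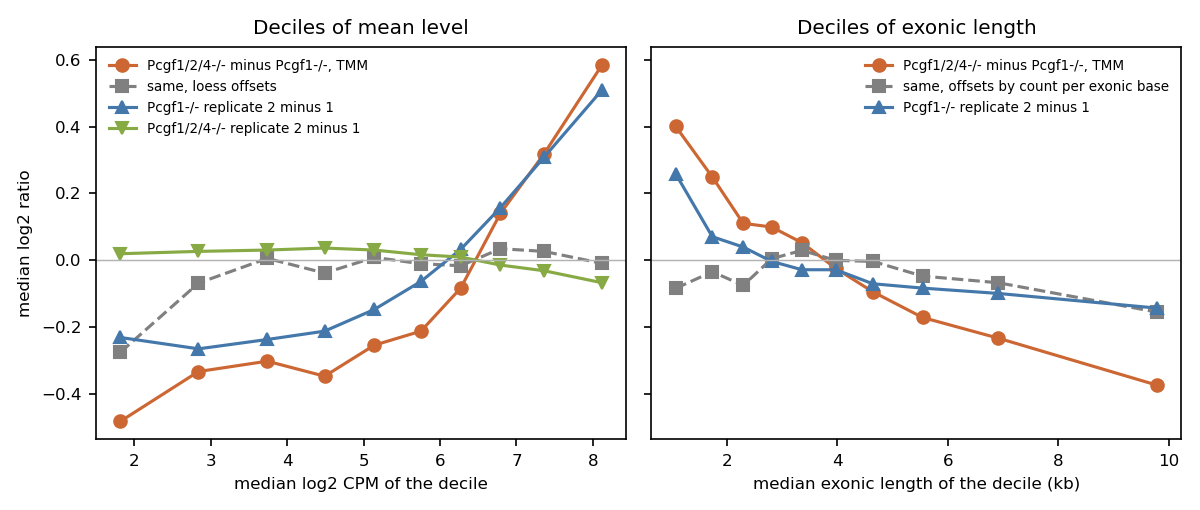
Median log2 ratio (y axis) in 10 groups of genes by mean level (left, x axis in log2 CPM) and by exonic length (right, x axis in kb). Both the genotype comparison with TMM scaling and the difference between the 2 Pcgf1-/- libraries rose with level, from -0.483 to 0.585 and from -0.232 to 0.51, and fell with length, while the offsets (grey squares) brought the medians of the genotype comparison nearer to 0.

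The targeted genes checked the labels. Pcgf1 had 463 and 434 counts in wild-type libraries, 44 and 14 in Pcgf1-/-, and 1 and 2 in the triple knockout. It was thus low in all 4 libraries, and lower still in the triple knockout (log2 fold change -2.46 ± 0.65 SE, adjusted p = 0.000944, edgeR quasi-likelihood test). Pcgf2 RNA stood at 29.4 and 27.3 CPM in Pcgf1-/- and at 55.8 and 55.7 CPM in the triple knockout (log2 0.97 ± 0.16, adjusted p = 2.47e-07). Bmi1 stood at 15.7 and 15.4 CPM against 13.6 and 19.4 CPM (log2 0.10 ± 0.28, adjusted p = 0.794). Neither transcript was lowered, and counts over a whole gene do not show whether a protein is made. On chromosome Y, Ddx3y, which encodes an RNA helicase, had 728 and 708 counts in wild-type libraries, 3 and 1 in Pcgf1-/-, and 28 and 34 in the triple knockout (log2 5.56 ± 0.51, adjusted p = 2.69e-16). Uty, a histone demethylase gene of the same chromosome, had 0 counts in all 4 libraries against 352 and 321 in wild-type. The 2 lines therefore differed in Ddx3y, a gene outside the design. With wild-type and Pcgf2/4-/- libraries on the same scale, Ddx3y stood at 8.62 and 9.97 CPM in Pcgf2/4-/-. On that scale it stood at 0.321 and 0.223 CPM in Pcgf1-/- and at 14.7 and 15.1 CPM in the triple knockout. At this gene the triple knockout was thus nearer to Pcgf2/4-/- than to Pcgf1-/-, and the reason was not tested. All 8 of the embryonic stem cell markers were at 1 CPM or more in all 4 libraries, and their sum was 1660 and 2370 CPM in Pcgf1-/- against 3490 and 3280 CPM in the triple knockout. Of the 8 fibroblast markers, Postn and Dcn were at 0 in all 4 libraries, and the sum lay between 26.1 and 33.5 CPM.

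The level of 6160 of 12139 genes, 50.7% of those tested, differed between the triple-knockout and the Pcgf1-/- line at an adjusted p below 0.05. Of these, 2835 (23.4% of the genes tested) were raised and 3325 (27.4%) were lowered. The groups did not overlap at 9354 genes, 77.1% of those tested. Lack of overlap was a condition of the rule by which genes are named below, apart from the targeted genes. It therefore lends no support where the libraries of a genotype are said to lie above those of the other. The dispersion was small, with a biological coefficient of variation of 12.8%, and small shifts passed the test. Against a fold of 1.5, 2421 genes (19.9%) passed, of which 991 (8.16%) were raised and 1430 (11.8%) were lowered. The median over all genes was -0.032. Leaving out the first or the second triple-knockout library lowered the count from 6160 to 3551 and 3493, DESeq2 gave 3650, and the trend-corrected fit called 2914 genes raised and 3288 lowered of 11248, or 25.9% and 29.2% (55.1% in all). Each count for a gene list below is to be read against these shares.

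Among the genes of at least moderate level, the largest rise was at Adh1, an alcohol dehydrogenase that oxidises retinol. Its counts were 2 and 1 in Pcgf1-/- and 77 and 94 in the triple knockout, or 0.213 and 0.22 against 40.2 and 41.5 CPM. The ratio was 190 with a counting interval of 63.9 to 930 (adjusted p = 2.1e-25). The groups stood far apart, with next to no Adh1 in either Pcgf1-/- library. Htra1, a secreted serine protease, rose from 1.39 and 1.1 CPM to 37.1 and 30.5 CPM (log2 4.68 ± 0.37, adjusted p = 1.12e-19). Crabp1, a cytoplasmic carrier of retinoic acid, rose from 1.39 and 0.44 CPM to 18.3 and 23 CPM (log2 4.26 ± 0.41, adjusted p = 5.05e-15). Both triple-knockout libraries were above both others at each of these genes. Pramel6, of the Prame-like family of multi-copy genes expressed in early embryos, rose from 3.41 and 1.1 CPM to 63.1 and 65.4 CPM (log2 4.61 ± 0.26, adjusted p = 4.17e-28). Gata3, a zinc finger transcription factor of trophoblast and of T cells, rose from 3.73 and 2.42 CPM to 44.9 and 52.6 CPM (log2 3.89 ± 0.28, adjusted p = 5.16e-22). Col4a1, a chain of basement membrane collagen, rose from 2.45 and 1.32 CPM to 26.1 and 35.8 CPM (log2 3.91 ± 0.35). In each the triple-knockout libraries were alike and well above the others. The other genes of the 10 were Slc22a13b-ps, Olfml3, Emp1 and Grhl2, with log2 changes from 3.28 to 4.09. Grhl2 encodes an epithelial transcription factor, and Emp1 a membrane protein of epithelia. Slc22a13b-ps is a pseudogene, and its reads may be shared with related transporter genes.

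The largest fall was at Mogat2, an enzyme of triglyceride synthesis, with 42.2 and 39 CPM in Pcgf1-/- and 2.61 and 0.442 CPM in the triple knockout (log2 -4.80 ± 0.39, adjusted p = 8.03e-19). Amn, which encodes amnionless, a membrane partner of cubilin, fell from 31.7 and 31 CPM to 1.57 and 0.883 CPM (log2 -4.68 ± 0.44, adjusted p = 7.93e-16). P2rx2, an ATP-gated ion channel, fell from 52.7 and 43.4 CPM to 2.61 and 1.33 CPM (log2 -4.64 ± 0.34, adjusted p = 1.81e-21). At all of them the lower group held at most 5 counts per library, so the depth of those libraries limits how far below a fall can be seen. Hhip, an inhibitor that binds Hedgehog ligands, fell from 28.9 and 25.1 CPM to 0.522 and 2.65 CPM (log2 -4.00 ± 0.43, adjusted p = 4.37e-13). Cyp27a1, a sterol hydroxylase, fell from 29.5 and 23.8 CPM to 2.09 and 1.33 CPM (log2 -3.99 ± 0.43). Ggt1, a glutathione-cleaving enzyme of the cell surface, fell from 87 and 82.7 CPM to 5.22 and 6.18 CPM (log2 -3.88 ± 0.21, adjusted p = 2.62e-29). The libraries of a genotype were close to each other at Ggt1. Serpinf1, G0s2, Hpgd and Slc47a1 completed the 10, with log2 changes from -3.95 to -4.14. They encode a secreted serpin, an inhibitor of lipolysis, a dehydrogenase of prostaglandins and a transporter of cations. These 20 genes kept their direction and their call in each of the up to 16 other settings in which they were tested. The counts are not known to use strand, and Adh1, Htra1, Col4a1, Gata3 and Grhl2 overlap a gene on the other strand, so reads of the pair cannot be told apart. Olfml3, Gata3, Grhl2 and Ggt1 overlap a gene on their own strand.

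**Figure D2:**
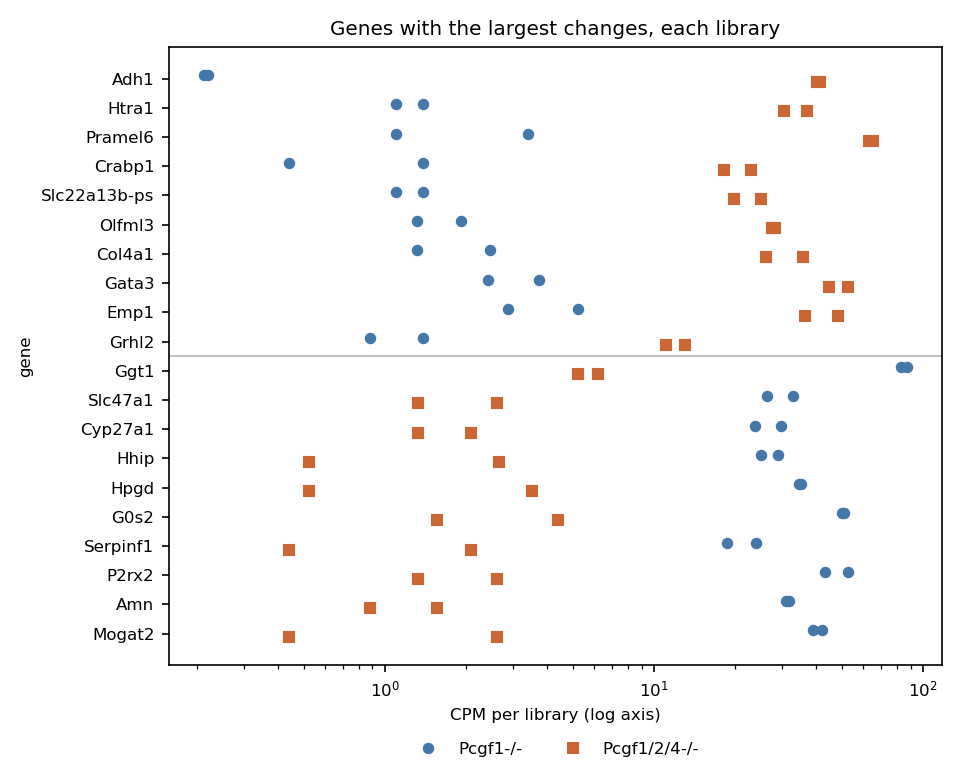
CPM in each of the 4 libraries (x axis, log scale) of the 10 raised genes (top) and the 10 lowered genes (bottom) with the largest log2 changes among tested genes with a mean log2 CPM of at least 2. Circles are Pcgf1-/- libraries and squares are Pcgf1/2/4-/- libraries, and at each gene the symbols of the genotypes do not overlap along the axis, which was a condition of the choice.

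Of these 20 genes, 7 had a PCGF2 peak near a start in Pcgf1-/- cells, where canonical PRC1 was still present: Htra1, Crabp1, Col4a1, Gata3 and Grhl2 among the raised, Slc47a1 and Ggt1 among the lowered. Over all annotated genes tested, 1321 of 11248 had such a peak. The 250 bases before the outermost annotated start are shown for the first 2 of each direction, since CpG-rich DNA is where PRC1 is recruited. They were read from NCBIM37 with the GENCODE M1 annotation, 5′ to 3′ on the strand of the gene, with each CpG (the letters CG, the same on both strands) in capitals. Htra1 (+ strand) was read from chr7:138079375-138079624, Crabp1 (+) from chr9:54612305-54612554, Slc47a1 (-) from chr11:61191848-61192097 and Ggt1 (+) from chr10:75024099-75024348.
Htra1: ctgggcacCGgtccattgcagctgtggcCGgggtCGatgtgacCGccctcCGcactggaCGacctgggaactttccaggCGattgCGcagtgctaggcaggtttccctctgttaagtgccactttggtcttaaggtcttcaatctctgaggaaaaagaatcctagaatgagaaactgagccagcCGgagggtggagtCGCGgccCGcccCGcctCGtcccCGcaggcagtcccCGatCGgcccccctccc
Crabp1: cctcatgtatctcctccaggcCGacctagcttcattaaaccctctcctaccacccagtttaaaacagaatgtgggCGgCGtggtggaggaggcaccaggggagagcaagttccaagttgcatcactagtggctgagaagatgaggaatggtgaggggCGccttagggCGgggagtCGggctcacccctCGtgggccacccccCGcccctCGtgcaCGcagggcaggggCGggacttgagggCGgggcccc
Slc47a1: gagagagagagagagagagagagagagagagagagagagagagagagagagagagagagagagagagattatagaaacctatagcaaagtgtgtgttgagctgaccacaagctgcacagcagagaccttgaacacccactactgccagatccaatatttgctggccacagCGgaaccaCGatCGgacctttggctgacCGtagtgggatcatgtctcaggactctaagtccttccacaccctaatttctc
Ggt1: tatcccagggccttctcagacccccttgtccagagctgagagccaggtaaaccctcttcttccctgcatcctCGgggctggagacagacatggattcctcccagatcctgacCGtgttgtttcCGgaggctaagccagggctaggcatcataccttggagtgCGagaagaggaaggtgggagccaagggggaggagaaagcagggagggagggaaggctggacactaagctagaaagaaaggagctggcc
Htra1 held 17 CpG and Crabp1 12, against 4 each at Slc47a1 and Ggt1. The median over 11245 tested promoters of the same length was 15, with quartiles of 8 and 22, and 1.26% held none. Other named genes varied as widely: among raised genes with PCGF2, Gata3 held 6 and Col4a1 31, and lowered Atf3 held 23. No difference in CpG number went with direction over all genes: the median was 14 at 2652 raised and 14 at 3051 lowered promoters, and 16 at 347 raised and 15 at 336 lowered promoters with PCGF2.

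The other PCGF2-bound genes with large falls were Tsc22d3, Prom1 and Atf3. Tsc22d3, a leucine zipper protein induced by glucocorticoids, fell from 70.5 and 70.9 CPM to 6.78 and 3.98 CPM (log2 -3.74 ± 0.23, adjusted p = 7.76e-26). Prom1, the surface glycoprotein CD133, fell from 24 and 17.6 CPM to 1.57 and 2.21 CPM (log2 -3.45 ± 0.44). Genes with PCGF2 at their promoter in Pcgf1-/- cells therefore stood among both the most raised and the most lowered.

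Genes of the Polycomb complexes themselves moved in both directions. Of 13 tested subunits of canonical PRC1, 4 were raised and 0 were lowered, with a median log2 change of 0.15. The raised ones were Cbx2, Cbx7, Cbx8 and Pcgf2, itself a targeted gene. In the trend-corrected fit 5 were raised and 1 lowered, with a median of 0.39. The lowered one was Rnf2, the RING1B gene, at log2 -0.47 (adjusted p = 4.25e-05), against 0.05 ± 0.29 with TMM scaling. Cbx8, a chromodomain subunit, rose from 16.2 and 13.4 CPM to 40.2 and 38.4 CPM (log2 1.38 ± 0.22, adjusted p = 1.2e-07). Both triple-knockout libraries were above both others. Cbx7, the main chromodomain subunit of stem cells, changed by log2 0.50 ± 0.13 and Cbx2 by 0.34 ± 0.13, small shifts in genes of this level. Of the 8 subunits of the PCGF1 complex, 2 were raised and 2 lowered, and the lowered ones were Yaf2 and the targeted Pcgf1 itself. Yaf2, which bridges RING1B to variant complexes, fell from 35.8 and 40.7 CPM to 14.6 and 15.5 CPM (log2 -1.33 ± 0.22, adjusted p = 4.82e-07). Kdm2b, the CpG-binding subunit, changed by log2 0.49 ± 0.17 and Skp1a by 1.31 ± 0.27, or 0.67 with trend correction.

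Of 20 tested subunits of the PCGF3/5 and PCGF6 complexes, 7 were raised and 4 lowered, with a median of 0.32. Pcgf5 rose from 5.23 and 3.96 CPM to 12 and 12.8 CPM (log2 1.39 ± 0.36, adjusted p = 0.000762). Mga, the DNA-binding scaffold of the PCGF6 complex, fell from 261 and 260 CPM to 96.5 and 101 CPM (log2 -1.4 ± 0.22, adjusted p = 1.05e-07). The libraries of each genotype were close at Mga. Auts2, an activating partner of PCGF3/5, had a log2 change of -1.32 ± 0.28, and E2f6, a DNA-binding partner of PCGF6, of -0.93 ± 0.38, which lost its call with trend correction (-0.63, adjusted p = 0.0879). Of 11 tested PRC2 genes, 4 were raised and 1 lowered, and the median was 0.41 but -0.04 in the trend-corrected fit, where 4 were raised and 3 lowered. Ezh2, the catalytic subunit, rose from 54.6 and 53.9 CPM to 115 and 129 CPM (log2 1.17 ± 0.13, adjusted p = 4.8e-12), and by 1.33 in the trend-corrected fit. Ezh1, its paralog, fell from 68.8 and 61.6 CPM to 39.1 and 42.8 CPM (log2 -0.67 ± 0.14, adjusted p = 3.78e-05).

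Developmental transcription factors outside the Hox clusters, the best known Polycomb targets, were raised more often than lowered among those measured. Of 102 in the table, 30 passed the filter on low counts, 13 of these were raised and 3 lowered, and the median was 0.54, beside -0.032 over all genes tested. In the trend-corrected fit 15 of 28 were raised and 2 lowered, with a median of 0.82. A gene silent in Pcgf1-/- passes the filter only if it is raised, so these counts, and those of the lists below, describe the genes that passed. Tbx15, a T-box factor of limb and head mesenchyme, had 0 counts in both Pcgf1-/- libraries and 17 and 21 in the triple knockout, at least 42.2-fold higher against a floor of 3 counts over the Pcgf1-/- libraries (adjusted p = 3.37e-16). Lhx2, a LIM-homeobox factor of the forebrain, had 2 and 1 counts against 7 and 12, a ratio of 21.1 with an interval of 6.21 to 111. Both genes were near silence in Pcgf1-/- and low in the triple knockout. Hand1, a factor of trophoblast and heart, had 1 and 3 counts against 12 and 8 (log2 3.92 ± 0.55, adjusted p = 6.92e-09). Otx1 and Meis1, homeobox genes outside the rule by which genes were named and picked after their values were seen, had log2 changes of 3.87 ± 0.50 and 2.13 ± 0.30. In the other direction, T (brachyury), the factor of the primitive streak, fell from 8.53 and 5.5 CPM to 1.57 and 2.21 CPM (log2 -1.92 ± 0.51, adjusted p = 0.00107).

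Of 39 Hox genes, 16 were tested, 4 were raised and 4 lowered, so their shares were near those of all genes. The raised ones were Hoxd10, Hoxd9, Hoxd13 and Hoxa10, and the lowered ones included Hoxa2, Hoxa3 and Hoxb7, of which Hoxb7 lost its call with trend correction (log2 -0.74, adjusted p = 0.0663). Hoxd10 had 0 counts in both Pcgf1-/- libraries and 9 and 15 in the triple knockout, at least 26.6-fold higher against the floor of 3 counts over the group (adjusted p = 5.12e-14). Hoxd9 had 2 and 1 counts against 19 and 19, a ratio of 42.2 with an interval of 13.4 to 214 (adjusted p = 5.69e-14). Hoxd13 rose from 0.747 and 0.66 CPM to 5.74 and 5.3 CPM (log2 2.89 ± 0.47, adjusted p = 2.1e-07). No library of one genotype reached the other at these HoxD genes, as the naming rule required. Hoxa3 had 45 and 21 counts against 1 and 1, a ratio of 0.101 with an interval of 0.012 to 0.379 (adjusted p = 6.79e-05). In the trend-corrected fit 7 of 15 Hox genes were raised and 2 lowered. Hoxd10 overlaps another gene on its strand.

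Of 16 tested trophoblast genes, 11 were raised and 2 lowered, with a median of 0.78, and 8 of 15 were raised in the trend-corrected fit with a median of 0.82. Krt7, a keratin of simple epithelia, had 1 and 0 counts in Pcgf1-/- and 9 and 20 in the triple knockout, a ratio of 96.6 with an interval of 16 to 3940 (adjusted p = 1.46e-13). Peg10, an imprinted retrotransposon-derived gene needed for the placenta, rose from 19.2 and 16.7 CPM to 127 and 148 CPM (log2 2.92 ± 0.14, adjusted p = 5.21e-32). Gata3 and Hand1, given above, belong to the list as well. Every one of these was higher in both triple-knockout libraries. The 5 trophoblast markers used as a check of cell type summed to 45.1 and 37.6 CPM in Pcgf1-/- and to 90.3 and 99.4 CPM in the triple knockout. Most of that rise was Gata3 alone, from 3.73 and 2.42 CPM to 44.9 and 52.6 CPM. Elf5, a marker that defines the lineage, was at 0 in all 4 libraries. Ascl2, a factor of trophoblast that is also a Wnt target, fell from 17.7 and 14.1 CPM to 6.78 and 6.63 CPM (log2 -1.27 ± 0.35, adjusted p = 0.00165).

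The primitive endoderm list split: 8 of 17 tested members were raised and 6 lowered, with a median of -0.22. In the trend-corrected fit 6 of 16 were raised and 4 lowered, with a median of -0.01. DESeq2, with 28 members, called 7 raised and 3 lowered with a median of 1.45, so the sign of the median depended on the fit. Dab2, an endocytic adaptor of the visceral endoderm, had 1 and 0 counts in Pcgf1-/- and 18 and 25 in the triple knockout, a ratio of 143 with an interval of 24.4 to 5790 (adjusted p = 7.53e-16). Col4a2, the partner chain of Col4a1 transcribed from the same promoter region, rose from 0.747 and 0 CPM to 23 and 19.4 CPM (log2 5.34 ± 0.47, adjusted p = 5.56e-17). Lamb1, a laminin chain named after its value was seen, changed by 2.69 ± 0.40. Amn, at -4.68, and Serpinh1, a collagen chaperone, at -2.77 ± 0.25, went the other way. The 7 endoderm markers summed to 1.28 and 0.22 CPM in Pcgf1-/- and to 14.6 and 16.3 CPM in the triple knockout, and 0 of the 7 reached 1 CPM in all 4 libraries. Most of the triple-knockout sum was Dab2, at 9.39 and 11 CPM. Gata4 had 4 and 1 counts there, Gata6 0 and 3, and Foxa2 0 and 2. Fewer cells of a type and less RNA per cell cannot be told apart in bulk RNA.

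All 9 tested neural genes of a list of 32 changed, 6 raised and 3 lowered, with a median of 1.03 and of 0.47 after trend correction. The other 23 did not pass the filter on low counts, which a gene silent in Pcgf1-/- passes only if it is raised. DESeq2, with 27 members, called 4 raised and 3 lowered. Nefm, a neurofilament chain, rose from 7.89 and 7.48 CPM to 47 and 48.6 CPM (log2 2.62 ± 0.23, adjusted p = 8.6e-17). Syp, a synaptic vesicle protein, changed by log2 1.48 ± 0.41, Pou3f2, a neural POU factor, by 1.42 ± 0.45, and Stmn2, a tubulin-binding protein, by 1.22 ± 0.33 but by 0.36 with trend correction. The 5 neural markers summed to 73.1 and 63.8 CPM in Pcgf1-/- and to 88.7 and 96.7 CPM in the triple knockout, with Neurog2 at 0. Of 12 tested mesendoderm genes, 3 were raised and 1 lowered, with a median of -0.15. Lefty2, an inhibitor of Nodal, rose from 48.4 and 51.5 CPM to 175 and 175 CPM (log2 1.81 ± 0.15, adjusted p = 1.07e-17), and Nodal itself changed by 0.67 ± 0.20, a call that was lost with trend correction (0.18, adjusted p = 0.142). Of 12 tested fibroblast and matrix genes, 6 were raised and 1 lowered, with a median of 0.67. S100a6, a calcium-binding protein, changed by log2 3.02 ± 0.38, Anxa1, a phospholipid-binding protein, by 2.71 ± 0.39, and Timp3, an inhibitor of metalloproteinases, by 1.56 ± 0.45. Lum, a small matrix proteoglycan, had a log2 change of -2.29 ± 0.64 on 33 and 17 counts against 1 and 2.

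**Figure D3:**
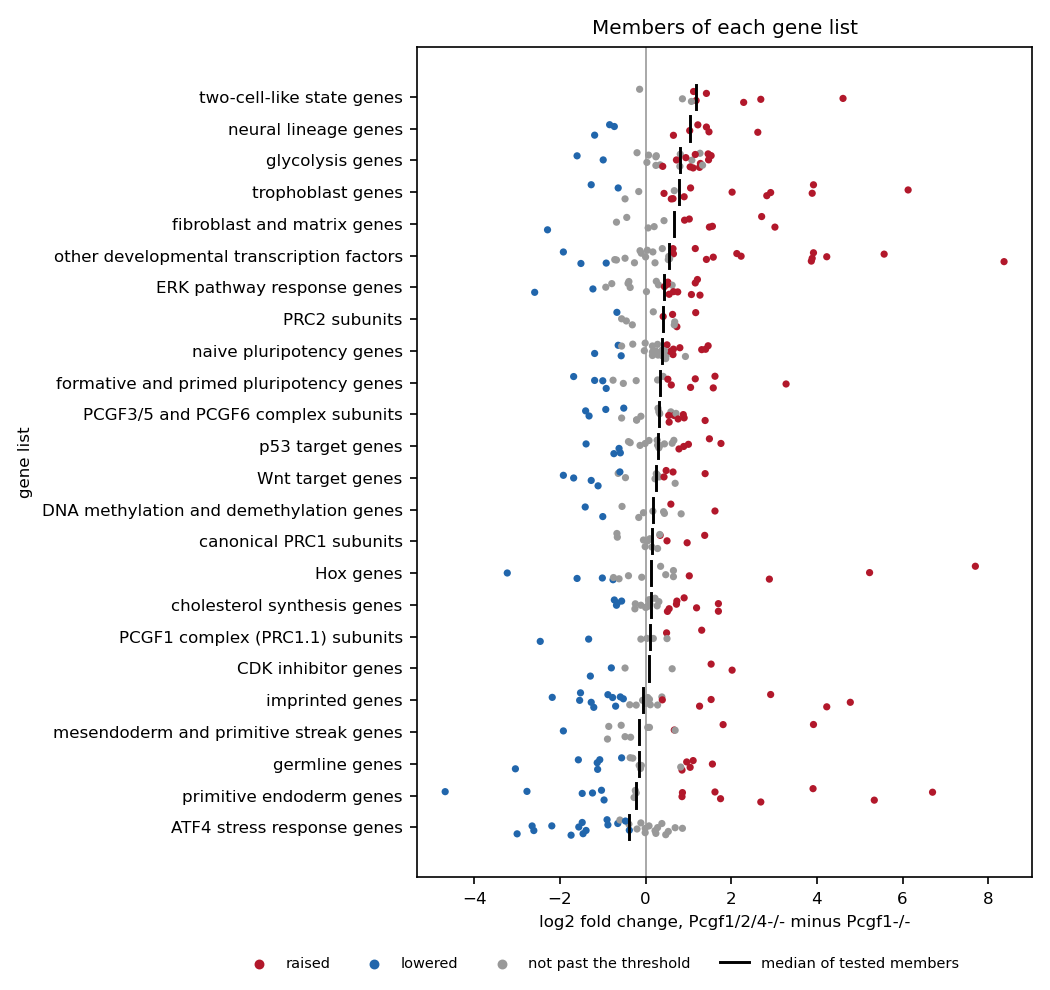
Log2 fold change (x axis, Pcgf1/2/4-/- minus Pcgf1-/-, TMM scaling) of the tested members of 24 gene lists (y axis, ordered by median). Each point is a gene, red where raised, blue where lowered and grey where the adjusted p was 0.05 or more, and black bars are medians over tested members, from -0.39 for the ATF4 list, where 0 were raised, to 1.18 for the two-cell-like list, where 0 of 9 were lowered with this scaling and 1 of 7 in the trend-corrected fit.

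Naive pluripotency genes, which maintain the ground state of stem cells, gave calls that followed the scaling. Of 28 tested, 8 were raised and 3 lowered with a median of 0.39, while in the trend-corrected fit 8 of 27 were raised and 9 lowered with a median of -0.10. Pou5f1, the OCT4 gene, stood at 197 and 336 CPM in Pcgf1-/- and at 700 and 623 CPM in the triple knockout (log2 1.31 ± 0.40, adjusted p = 0.00439), which became 0.43 with trend correction. Dppa5a and Tdgf1 likewise went from 1.4 and 1.46 to 0.22 and 0.48. The Pcgf1-/- libraries were far apart at these abundant genes. Klf2, a naive factor of the Krüppel family, fell in both fits, from 36.2 and 40.7 CPM to 18.3 and 15.5 CPM (log2 -1.19 ± 0.22, adjusted p = 3.23e-06). Of 16 tested formative and primed genes, 7 were raised and 4 lowered with a median of 0.34. Otx2, a homeobox factor of the formative state, rose from 11.2 and 7.26 CPM to 26.6 and 30.9 CPM (log2 1.58 ± 0.27, adjusted p = 8.04e-07). Lef1, a nuclear effector of Wnt signalling, fell from 54.3 and 53 CPM to 15.7 and 17.7 CPM (log2 -1.68 ± 0.19, adjusted p = 2e-12). The rise of Otx2 and the fall of Lef1 each separated the genotypes without overlap, as the naming rule required.

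Of 11 tested genes of DNA methylation and demethylation, 2 were raised and 2 lowered. Dnmt3b, a de novo methyltransferase, rose from 113 and 115 CPM to 355 and 350 CPM (adjusted p = 6.92e-08), and by log2 1.38 with trend correction. Dnmt3a, its paralog, fell from 56.1 and 48 CPM to 22.4 and 29.6 CPM (log2 -1 ± 0.17, adjusted p = 7.6e-07). The paralogs thus moved in opposite directions. Uhrf2, a reader of modified cytosine, had a log2 change of -1.41 ± 0.34 and Dnmt3l, a cofactor, of 0.59 ± 0.25, which lost its call with trend correction (0.15, adjusted p = 0.124).

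Genes listed for the two-cell-like state, a rare state of stem cell cultures, gave 6 raised and 0 lowered of 9 tested, with a median of 1.18. Of 27 in the table, 18 were not tested. In the trend-corrected fit 5 were raised and 1 lowered of 7, with a median of 1.44. DESeq2 called 3 raised and 0 lowered, and the median ran from 0.65 to 3.11 over the other settings. Beside Pramel6, Pramel7 rose from 6.93 and 4.4 CPM to 39.1 and 38.4 CPM (log2 2.69 ± 0.27, adjusted p = 1.94e-14). Usp17la stood at 1.81 and 0.22 CPM against 8.87 and 3.98 CPM. These are multi-copy families, whose reads may be split among copies, and at Pramel6 and Usp17la the first Pcgf1-/- library was well above the second. The 4 markers of this state, of which 3 were in the table, summed to 7.57 and 2.2 CPM against 10.4 and 11 CPM. In wild-type libraries Pramel6 stood at 19.1 and 22.5 CPM and Pramel7 at 16.3 and 14.1 CPM. Whether the state itself became more frequent was not tested. Of 17 tested germline genes, 5 were raised and 6 lowered. Stra8, induced by retinoic acid at meiotic entry, fell from 26.9 and 28.6 CPM to 3.13 and 3.53 CPM (log2 -3.04 ± 0.36, adjusted p = 2.02e-11). The libraries of each genotype agreed closely at Stra8. Tex101, a surface protein of germ cells, changed by log2 1.56 ± 0.18, Tex11, a meiosis gene of chromosome X, by -1.57 ± 0.33, and Sycp3, of the meiotic chromosome axis, by -1.13 ± 0.24.

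Of 25 tested imprinted genes, 6 were raised and 10 lowered. H19, a long noncoding RNA, had 5 and 0 counts in Pcgf1-/- and 18 and 26 in the triple knockout (log2 4.78 ± 0.51, adjusted p = 2.12e-13). Igf2, the growth factor gene beside it, had 5 and 0 counts against 11 and 19 (log2 4.23 ± 0.52, adjusted p = 5.52e-11). The neighbours, which are imprinted on opposite parental copies, both rose and both stayed low. Slc22a18, a transporter gene, fell from 19.2 and 15 CPM to 2.09 and 5.3 CPM (log2 -2.18 ± 0.40, adjusted p = 3.17e-06). Of 6 tested CDK inhibitors, 2 were raised and 2 lowered. Cdkn2a, which encodes p16 and p19 and is a known Polycomb target, rose from 3.84 and 2.86 CPM to 14.6 and 13.7 CPM (log2 2.02 ± 0.36, adjusted p = 2.17e-06). Cdkn2b, its neighbour encoding p15, fell from 32.4 and 25.3 CPM to 9.92 and 13.7 CPM (log2 -1.29 ± 0.26, adjusted p = 2.54e-05). Adjacent genes of this locus therefore moved apart. Cdkn1c changed by log2 1.53 ± 0.43 and Cdkn1b by -0.80 ± 0.18.

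The ATF4 stress response, which raises amino acid synthesis and transport and can lead to cell death, was lowered in more of its members than raised. Of 29 tested genes, 0 were raised and 14 were lowered, with a median of -0.39, and in the trend-corrected fit 0 were raised and 26 were lowered, with a median of -0.59. DESeq2 called 2 of 30 raised and 11 lowered. Atf3, a transcription factor of the response, fell from 52.7 and 46.7 CPM to 4.17 and 7.95 CPM (log2 -3.00 ± 0.26, adjusted p = 7.52e-18). Ddit3, the CHOP factor, fell from 121 and 208 CPM to 25.6 and 26.5 CPM (log2 -2.65 ± 0.19, adjusted p = 2.22e-22). Aldh1l2, a mitochondrial folate enzyme, fell from 79.2 and 70.4 CPM to 17.7 and 7.51 CPM (log2 -2.61 ± 0.19, adjusted p = 4.33e-21). At each of these the Pcgf1-/- libraries were both well above the triple-knockout libraries. Slc7a11, the cystine transporter, had a log2 change of -2.19 ± 0.55. With wild-type and Pcgf2/4-/- libraries on the same scale, Atf3 stood at 1.39 and 1.37 CPM in wild-type and at 5.33 and 7.35 CPM in Pcgf2/4-/-. Ddit3 stood at 40.5 and 40.1 CPM in wild-type and at 32.8 and 34.9 CPM in Pcgf2/4-/-. The high levels of both genes were thus those of the Pcgf1-/- libraries, and the triple-knockout levels lay nearer to those of the other lines.

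At glycolysis genes, most of them abundant, the size of the shift depended on the scaling, while raised calls outnumbered lowered ones in both fits. Of 25 tested, 11 were raised and 2 lowered with a median of 0.81, and with trend correction 16 of 24 were raised and 3 lowered with a median of 0.24. Gapdh stood at 68.6 and 122 CPM against 294 and 253 CPM (log2 1.53 ± 0.22, adjusted p = 1.2e-08), or 1.1 with trend correction. Slc16a3, a lactate exporter, rose by the same in both fits, from 54 and 44.7 CPM to 125 and 149 CPM (log2 1.47 ± 0.14 and 1.56). Slc2a1, the glucose transporter, changed by 1.46 ± 0.37 and by 0.68 with trend correction, and Eno2, the neuronal enolase, by -1.60 ± 0.38. Of 23 tested cholesterol synthesis genes, 8 were raised and 4 lowered with a median of 0.12. Insig1, the sterol sensor of the pathway, rose from 12.8 and 10.6 CPM to 47 and 30.9 CPM (log2 1.70 ± 0.24, adjusted p = 3.61e-09). Both triple-knockout libraries were above both others at Insig1. The enzyme genes Dhcr7 and Fdft1 changed by 1.19 ± 0.18 and 0.90 ± 0.13.

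Signalling lists were mixed. Of 21 tested ERK response genes, 10 were raised and 2 lowered with a median of 0.44, in cells that all grew with a MEK inhibitor. Ccnd1, the cyclin D1 gene, fell from 147 and 158 CPM to 26.6 and 24.3 CPM (log2 -2.59 ± 0.17, adjusted p = 1.01e-24). Myc, the growth-promoting transcription factor, rose from 31.4 and 23.8 CPM to 61.6 and 68.5 CPM (log2 1.21 ± 0.15, adjusted p = 1.27e-10). The genotypes did not overlap at either of these genes, as the naming rule required. Phlda1 changed by log2 1.27 ± 0.37 and Junb, an AP-1 factor, by -1.23 ± 0.24. Of 16 tested Wnt targets, 4 were raised and 5 lowered, with T, Lef1 and Ascl2 as above and Dkk1, a secreted Wnt inhibitor, at 1.39 ± 0.40. Of 21 tested p53 targets, 5 were raised and 4 lowered. Pmaip1, the cell death gene Noxa, rose from 74.9 and 68.4 CPM to 241 and 246 CPM (log2 1.76 ± 0.19, adjusted p = 6.21e-13). Gdf15, a secreted stress factor that is also an ATF4 target, had a log2 change of -1.39 ± 0.18, Trp53inp1, an autophagy and cell death gene, of 1 ± 0.25, and Zfp365, a zinc finger gene, of 1.49 ± 0.42.

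Peak lists give the promoters with a call in each line. Each list came from 1 sample, as called by the authors, and the number of peaks also depends on the depth and enrichment of a sample. A gene counted as bound when any of its annotated starts had a peak no farther than 2.5 kb away. RING1B lay at 3302 genes in Pcgf1-/- and at 1458 and 1298 in the 2 triple-knockout samples, which kept 34.9% and 30.3% of the 3302. H2AK119ub1 lay at 2148 genes in Pcgf1-/- and at 360 and 178 in the triple knockout, with 14.4% and 7.36% kept, while the wild-type list held 823. H3K27me3 lay at 4197 genes in Pcgf1-/-, at 1206 in the triple knockout, with 27.9% kept, and at 2772 in wild-type. SUZ12 lay at 3282 genes in Pcgf1-/-, at 2860 in the triple knockout, with 79.1% kept, and at 3558 in wild-type. The Pcgf1-/- lists of both histone marks were thus the longest of the 3 lines, and those of RING1B (3273 in wild-type) and SUZ12 were close to or below wild-type. Of RING1B and the marks compared here, SUZ12 had the smallest difference in the number of genes.

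The shares of changed genes among those without a RING1B peak in the triple knockout were near the background at the adjusted p alone, and above it at a fold of 1.5. Of 1989 genes with RING1B in Pcgf1-/- and in neither triple-knockout list, 822 were tested, 22.1% were raised and 28.5% lowered (Wilson 95% intervals of 19.4% to 25.1% and 25.5% to 31.6%). The background over 11248 annotated genes, which holds the class itself, was 23.6% raised and 27.1% lowered, inside both intervals. All genes were read in the same 4 libraries, so these intervals and those below do not cover the spread between libraries. The shares moved with single libraries, as given in the closing section, so no test is drawn from the intervals. Against a fold of 1.5 the class gave 13.6% raised and 15.9% lowered, and all annotated genes 8.29% and 11.6%. The 456 tested genes that had RING1B in both lists gave 22.6% and 28.7%, and 10.3% and 14.9% against a fold of 1.5. At this fold the genes with RING1B in both triple-knockout lists were thus above the background as well. The 1321 tested genes with PCGF2 in Pcgf1-/- gave 26.3% raised and 25.4% lowered, with the background inside the interval for lowered genes (23.2% to 27.9%) and just below that for raised genes (24% to 28.7%). With trend correction the raised share of PCGF2 genes was 31.9% against 25.9%, and that of genes without RING1B in the triple knockout 29% against 25.9%. In the same fit it was 27% at genes with RING1B in both triple-knockout lists, and 34% of 206 genes with RING1B in 1 of them. Among the 460 tested genes with SUZ12 in Pcgf1-/- and not in the triple-knockout list, 27.2% were raised and 26.5% lowered, and 34.8% and 22.2% with trend correction. Of 1187 such genes for H3K27me3, 32% were lowered, against 27.1% in the background, and 27.7% against 29.2% with trend correction. This share was not particular to promoters without the mark. Of 268 tested genes with H3K27me3 in both lines, 33.2% were lowered, and 28.7% with trend correction. Of 830 with SUZ12 in both lines, 20.4% were raised and 32% lowered, and 29.2% and 26.9% with trend correction.

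Level mattered for these shares, since bound genes were low in general, with a median log2 CPM of 3.35 at genes whose RING1B peak was absent from the triple-knockout lists and of 5.5 at all annotated genes. Among genes with a mean log2 CPM below 3, 22.9% of 350 in that class were raised, 25% of 128 with RING1B in both triple-knockout lists, 27.9% of 377 with PCGF2, and 14.3% of 1269 without RING1B in Pcgf1-/-. These shares were not tested against each other. In this range a gene near silence in Pcgf1-/- passes the filter on low counts only if it is higher in the triple knockout, which raises the shares of classes that hold such genes. Many bound genes were not measured: 1167 of the 1989 of that class were not tested, 295 of them with no count in any of the 4 libraries. At single genes, Gata3 and Nefm had RING1B, H2AK119ub1 and H3K27me3 peaks in Pcgf1-/- and none of the 3 in the triple knockout, while Tbx15, raised from near silence, still had RING1B, SUZ12 and H3K27me3 peaks there. Atf3 and Tsc22d3, both lowered, had RING1B peaks in Pcgf1-/- and none in the triple knockout.

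**Figure D4:**
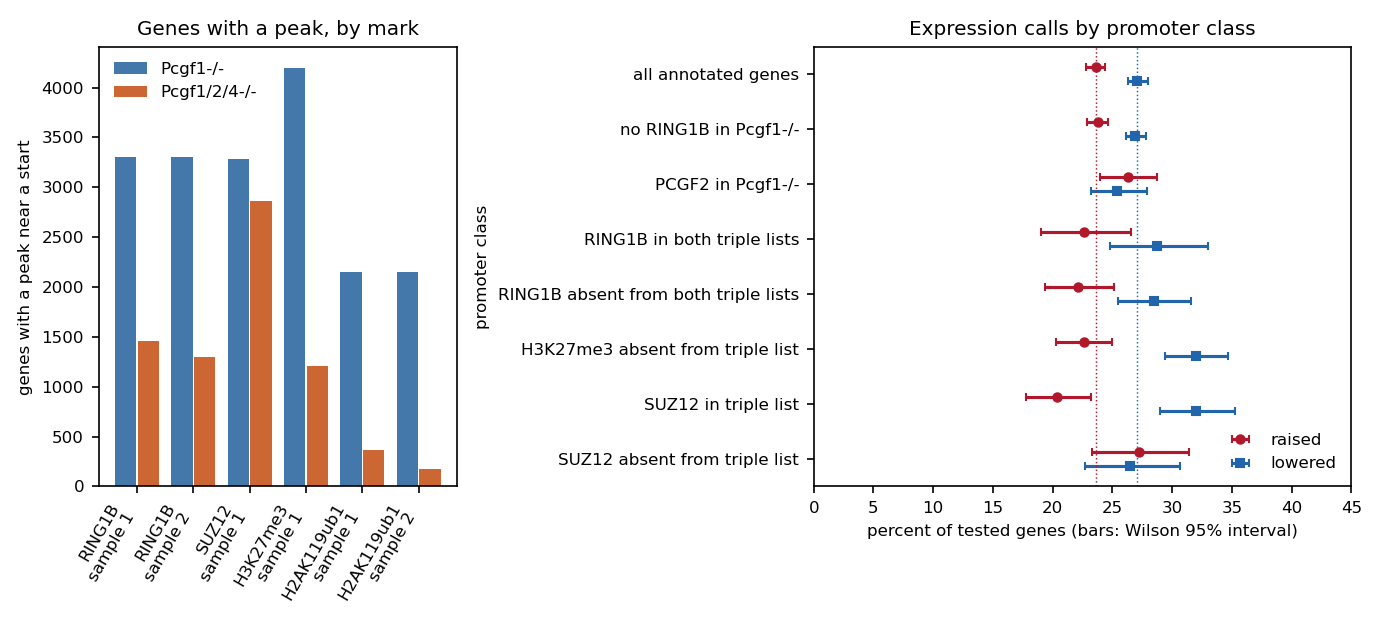
Left, number of genes with a peak within 2.5 kb of a start (y axis) in Pcgf1-/- and in each Pcgf1/2/4-/- sample, for 4 marks (x axis): the bars fall for RING1B, H3K27me3 and H2AK119ub1 and little for SUZ12. Right, percent of tested genes raised (circles) and lowered (squares) in each promoter class with Wilson 95% intervals, where most intervals hold the background of 23.6% and 27.1% (dotted lines). The intervals do not cover the spread between libraries.

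The same pair of genes was also removed in cells that keep PCGF1, in 2 Pcgf2/4-/- and 2 wild-type libraries, so the effect of PCGF2/4 loss can be set against the presence of PCGF1 in 1 fit of 8 libraries. That effect differed between cells without and with PCGF1 at 3625 of 13588 genes tested (26.7%, with 12.1% higher and 14.5% lower without PCGF1), and leaving out single libraries moved the count between 2000 and 5927. The wild-type libraries differed by less than sampling noise (chi-square over degrees of freedom of 0.935), and with them summed and counted as 1 sample the count was 2275. The Pcgf2/4-/- libraries, with 2764111 and 7547984 counts, differed far more, with a value of 23.1. The effect with PCGF1 present rests on that pair, and this fit held no trend correction. The genes described next were chosen for a large change without PCGF1, which is 1 side of this difference, so a large difference is in part built in by the choice and their p-values support nothing further.

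Htra1 stood at 13.9 and 16.1 CPM in wild-type cells, at 1.23 and 2.49 CPM in Pcgf2/4-/-, at 1.39 and 1.11 CPM in Pcgf1-/- and at 37.3 and 30.6 CPM in the triple knockout. In that fit 5.78% of genes were raised and 10% lowered by PCGF2/4 loss with PCGF1 present, 15.8% in all. Htra1 was lowered there (log2 -2.79 ± 0.33, adjusted p = 0.000853) and raised with PCGF1 absent, a difference of 7.47 ± 0.47 (adjusted p = 1.93e-05). Crabp1 had the same pattern, with 23.1 and 18.7 CPM in wild-type, 0.41 and 3.61 CPM in Pcgf2/4-/-, 1.39 and 0.446 CPM in Pcgf1-/- and 18.4 and 23.1 CPM in the triple knockout (difference 7.19 ± 0.69, adjusted p = 0.000167). At both genes the wild-type and triple-knockout levels were high and the partial knockouts were low. Adh1 rose with PCGF1 present as well (log2 2.51 ± 0.60, adjusted p = 0.0182), from 0.975 and 0.137 CPM to 2.05 and 3.74 CPM. Pramel6, Olfml3, Col4a1, Gata3, Emp1 and Grhl2 had log2 changes between -0.20 and 0.51 with PCGF1 present, and none of them passed the test there. At each of these the wild-type libraries stood above both Pcgf1-/- and below both triple-knockout libraries. Emp1 stood at 32.5 and 31.4 CPM in wild-type, against 5.24 and 2.9 CPM in Pcgf1-/- and 36.8 and 48.4 CPM in the triple knockout. Myc (109 and 114 CPM), S100a6 (29.9 and 32.2) and Slc16a3 (236 and 237), picked after their values were seen, were higher in wild-type than in both lines compared. At Peg10 and Nefm wild-type lay between them.

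Tsc22d3 stood at 1.95 and 2.47 CPM in wild-type, at 2.87 and 4.99 CPM in Pcgf2/4-/-, at 70.7 and 71.8 CPM in Pcgf1-/- and at 6.83 and 4 CPM in the triple knockout (difference -4.71 ± 0.47, adjusted p = 0.00018). Atf3 (difference -5.27 ± 0.47, adjusted p = 0.000113), Hpgd (-5.37 ± 0.58, adjusted p = 0.000266) and Hhip (-4.81 ± 0.68, adjusted p = 0.000854) were of the same kind. Each was high in Pcgf1-/- and low in the other lines. P2rx2, Serpinf1 and Slc47a1 were lowered with PCGF1 and without it. P2rx2 changed by -4.72 ± 0.26 with PCGF1 present and by -4.64 ± 0.34 without, and its difference of 0.08 ± 0.54 did not pass the test (adjusted p = 0.97). The differences at Serpinf1 (-0.76 ± 1.19) and Slc47a1 (-0.25 ± 1.22) had wide errors and did not pass it either. The comparison without PCGF1 and that with PCGF1 share no library.

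**Figure D5:**
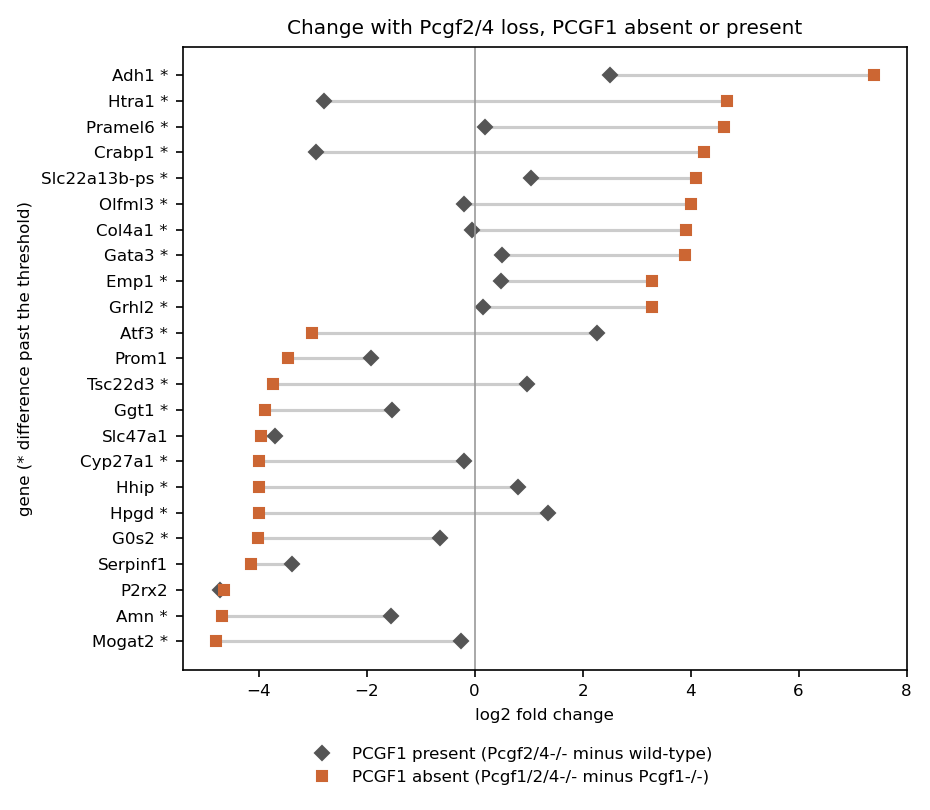
Log2 fold change with loss of PCGF2 and PCGF4 (x axis) in cells with PCGF1 (diamonds, Pcgf2/4-/- minus wild-type) and without it (squares, Pcgf1/2/4-/- minus Pcgf1-/-) for 10 raised and 13 lowered genes (y axis). Long grey bars mark genes such as Htra1 and Crabp1 that went down in one setting and up in the other, and stars mark an adjusted p below 0.05 for the difference.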

How the data were processed

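RNA was poly-A RNA made into libraries by a modified SMART-seq2 protocol, which does not mark strand. Reads per gene were deposited by the authors as raw counts, 1 column per library; the submitters' processing notes name TopHat2 2.1.1 and HTSeq 0.7.2, with no role or order. For the strand setting of the counting, the sources used here give nothing. Peak lists from ChIP-seq, as deposited by the authors, carry −log10 q values, and those notes name MACS2 2.1.1, Bowtie 1.2.2 and Picard 1.62 and the build mm9.

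The counts of 4 libraries were fitted with edgeR 4.0.16 in R 4.3.3 (TMM, filterByExpr, glmQLFit and glmQLFTest, prior count 2), with Benjamini-Hochberg adjustment over 12139 genes and a threshold of 0.05. Each ± after a log2 change is a standard error, |log2 fold change| over the root of F. The difference of effects came from 1 edgeR fit of 8 libraries. Alternatives included DESeq2 1.42.0, other scalings and filters, and leaving out each library. On simulated counts of 12139 genes with 2 libraries per group, the test recovered 74% of 50 genes raised 2-fold and 98% of 50 raised 4-fold, and called 0.051% of 11672 unchanged genes. The simulation gave every gene the same dispersion and held no trend with level or length, unlike these libraries. Its rates therefore do not carry over to the real counts. Of 23377 gene symbols, 20819 matched 1 locus of GENCODE M1 on NCBIM37. Intervals and floors cover counting error only.

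Named were the targeted genes, the 10 raised and 10 lowered genes with the largest changes past the threshold (mean log2 CPM of at least 2, no overlap of groups, chromosome Y left out), up to 4 genes per list, the 5 raised and 5 lowered genes with the largest changes among those with PCGF2, and chromosome Y genes. Lack of overlap was also required of the genes named from lists and of those with PCGF2. Members and lists were chosen with earlier results of these data known. The replicate numbers do not pair the libraries, as described in the closing section. Some named genes are not reported here.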

Additional observations from a re-analysis of the deposited data

Results flagged for a closer look

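The effect of PCGF2/4 loss differed between cells without and with PCGF1, by the interaction term of the edgeR fit of 8 libraries, at 3625 genes. Among the named genes, which were chosen for 1 side of it, the difference (log2, without PCGF1 minus with it) was 4.91 at Adh1, 7.47 at Htra1, 4.44 at Pramel6, 7.19 at Crabp1, 3.04 at Slc22a13b-ps, 4.21 at Olfml3, 3.95 at Col4a1, 3.39 at Gata3, 2.80 at Emp1 and 3.13 at Grhl2. On the other side it was -4.54 at Mogat2, -3.13 at Amn, -3.37 at G0s2, -5.37 at Hpgd, -4.81 at Hhip, -3.79 at Cyp27a1, -2.36 at Ggt1, -4.71 at Tsc22d3 and -5.27 at Atf3. Of the targeted genes, Pcgf2 RNA had a difference of 0.87 and Pcgf1 one of -2.74, the latter on 1 and 2 counts in the triple knockout.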

How the results depend on the processing

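Beside the 6160 changed genes, DESeq2 gave a count of its own of 3650 (2035 raised, 1615 lowered), and a test against a fold of 1.5 gave 2421 (991 raised, 1430 lowered). With DESeq2, 3 ERK response genes and 0 Wnt targets were raised, against 10 and 4. Leaving out 1 library gave 3493 to 8317 changed genes, 1409 to 3982 raised and 2084 to 4335 lowered: 3551 and 3493 without triple-knockout replicate 1 or 2, and 7029 and 8317 without Pcgf1-/- replicate 1 or 2. The lone library left in a group was assumed to vary like the other group. Same-numbered libraries did not deviate together (correlation -0.071), so the numbers do not pair them, and a fit with the replicate number as a block called 5615. Other scalings, filters and thinned counts called 5458 to 6628, a fit of 8 libraries 5118 and one of 14 libraries 6434. Of 1708 combinations of a named gene and a setting, 1605 kept direction and call, 102 lost the call and 1 reversed, Bmi1, whose value ran from -0.19 to 0.33 over left-out libraries.

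Shares in promoter classes, as percentage points from all annotated genes, moved with scaling and with single libraries, and no cause was tested. For PCGF2 the raised share (2.7) became -1.5 with DESeq2, 5.8 with loess offsets, 6.0 with trend correction and -0.4 to 2.4 over left-out libraries, and the lowered share (-1.7) became -5.4 with no filter, -4.8 with 14 libraries in 1 fit and -2.9 to -0.6 over left-out libraries. For RING1B absent from both triple lists the raised share (-1.4) became -4.6 with DESeq2, 1.7 with the replicate block, 1.9 with loess offsets, 5.3 at a fold of 1.5, 3.0 with trend correction, 2.5 with loess offsets and thinned counts, and -11.4 to 1.6 over left-out libraries. Its lowered share (1.3) became -2.1, -4.6 with no filter, -3.6 with 14 libraries, -4.3, -5.3, -2.3 and -3.9 to 2.0 in the same order. For RING1B in both triple lists the raised share (-1.0) became 3.3 with loess offsets and thinned counts and -4.1 to 1.6 over left-out libraries, and the lowered share (1.6) ran from 1.0 to 2.4. For SUZ12 absent from the triple list the raised share (3.6) became 7.9 with loess offsets, 9.1 at a fold of 1.5, 8.9 with trend correction and -5.7 to 6.2 over left-out libraries, and the lowered share (-0.6) became -5.3, -7.1 with trend correction, -5.3 with thinned counts too, and -4.7 to -0.2.

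The 3625 genes whose effect differed with PCGF1 became 2275 with the wild-type libraries summed and 2000 to 5927 over left-out libraries. Values that changed sign did so over left-out libraries, with loess offsets (0.11) as a further case at Col4a1, and missed the threshold where the sign had changed. For the difference the ranges were -0.02 to 0.50 at Bmi1, -0.45 to 0.51 at P2rx2, -2.15 to 0.03 at Serpinf1 and -0.77 to 0.20 at Slc47a1. For the effect with PCGF1 present they were -0.16 to 0.26 at Pcgf2, -0.25 to 0.05 at Col4a1, -0.05 to 0.23 at Grhl2, -1.16 to 0.05 at Mogat2, -0.05 to 1.06 at Hhip and -2.03 to 0.20 at Cyp27a1. The depth of the triple-knockout libraries limits the lowest levels that can be told from 0, with 3 counts standing for 1.56 and 1.32 CPM.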
